A study of Mus musculus with 10 samples.

Results

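Trnp1 is the gene of the TMF-regulated nuclear protein, a small nuclear protein that binds DNA. It was read by 2 of the 45101 probe sets on the array, and these were all the probe sets that the platform annotation gives to Trnp1 alone. The gene was chosen by its difference between the groups: the brighter of its probe sets had the largest fall of any probe set with a single gene symbol. Its levels in the groups are therefore given as a description, without a test.

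The samples came from a mouse model of T-ALL, the acute lymphoblastic leukemia of the T lineage, a malignancy of immature T cells, driven here by ICN1, the activated intracellular part of NOTCH1. All leukemias, controls included, carried the ROSCreERT2 transgene, a Cre recombinase that acts only after tamoxifen, and 2 floxed copies of CnB1. CnB1, now called Ppp3r1, encodes the regulatory subunit of the phosphatase calcineurin. Leukemic secondary recipient mice were given tamoxifen to delete CnB1 (TAM, 5 arrays) or only its corn oil carrier (OIL, 5 arrays), and leukemic cells, which were most of the marrow cells, were sorted by GFP or a similar marker. All OIL mice lacked tamoxifen as well as the deletion, so the drug and the deletion cannot be told apart. The arrays of either group are called F3, F3.1, F3.2, 204 and 206 here, and arrays of the same name were taken as pairs. For F3.1 and F3.2 the deposited labels carry a further number that differs between the OIL and the TAM array and was left off, so these pairs rest on the shared first part of the label. The labels give neither the meaning of F3, F3.1 and F3.2 nor the age or number of mice, so the spread between arrays may be partly technical.

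In the mouse cerebral cortex, Trnp1 is abundant in neural stem cells, where its level sets whether they renew themselves or give rise to other progenitors. In cultured cells the protein has been linked to cell cycle progression, and in the nucleus it gathers in and affects nucleoli, speckles and heterochromatin. TMF, the product of Tmf1, is a Golgi-associated protein that directs Trnp1 to degradation. Calcineurin acts upstream of the NFAT transcription factors, which it dephosphorylates in response to calcium.

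The start of the gene is shown because the findings concern its transcript level, and that of Cers4 because it was the gene with the most similar pattern. Both come from RefSeq (GRCm38.p6), from 250 bases before to 50 after the transcript start, 5′ to 3′ on the strand of the gene. They lie at chr4:133498501-133498800 on the minus strand for Trnp1 and at chr8:4493155-4493454 on the plus strand for Cers4. Capitals mark the NFAT core motif GGAAA on either strand.
Trnp1: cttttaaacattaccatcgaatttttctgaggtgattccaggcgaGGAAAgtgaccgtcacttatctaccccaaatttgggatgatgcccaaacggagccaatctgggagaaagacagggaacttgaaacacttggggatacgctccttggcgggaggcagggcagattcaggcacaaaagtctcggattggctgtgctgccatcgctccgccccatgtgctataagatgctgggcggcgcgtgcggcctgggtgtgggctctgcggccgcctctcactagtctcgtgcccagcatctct
Cers4: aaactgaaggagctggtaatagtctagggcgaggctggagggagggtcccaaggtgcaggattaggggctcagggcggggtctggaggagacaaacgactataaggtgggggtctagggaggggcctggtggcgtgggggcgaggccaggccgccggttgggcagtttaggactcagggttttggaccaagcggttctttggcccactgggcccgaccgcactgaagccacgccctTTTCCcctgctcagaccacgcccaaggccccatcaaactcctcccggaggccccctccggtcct

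The Trnp1 window held 1 match to GGAAA, on the strand of the gene, from -205 to -201 relative to the transcript start. This motif was present in 61.3% of the 32851 promoter windows of the same length, so its presence does not set Trnp1 apart. The window also held 2 matches to the GC box GGGCGG, from -42 to -37 on the opposite strand and from -18 to -13 on the strand of the gene; 35.7% of all windows held one. It held no match on either strand to TGGGAA (RBPJ, the DNA-binding partner of NOTCH; 25.6% of all windows), TGANTCA (AP-1; 7.81%) or CACGTG (the MYC E-box; 7.15%). No 2 of these matches overlapped. The GC content of the Trnp1 window was 55.3%, with 16 CG dinucleotides, against medians of 52.7% and 7 over all windows.

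The brighter Trnp1 probe set, 1453008_at, fell into 2 separate ranges by treatment. From highest to lowest, its RMA log2 level in OIL was 11.32 for label F3.2, 11.19 for F3.1, 10.56 for 204, 10.35 for 206 and 9.57 for F3. In TAM it was 8.44 for F3.2, 6.33 for 204, 5.88 for F3.1, 5.35 for 206 and 5.28 for F3. The lowest OIL array, F3, lay 1.14 log2 units above the highest TAM array, F3.2, so the groups did not overlap. Of all 45037 probe sets that are not controls, 1.23% had every TAM array below every OIL array; since this contrast chose the gene, nothing is read from that share.

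The OIL mean was 10.60 ± 0.70 and the TAM mean 6.26 ± 1.29 (SD, n = 5), so TAM lay at -4.34 log2 units from OIL, or 20.3-fold lower. The next largest mean falls of a probe set with 1 symbol were those of Apod, a lipocalin, at -2.76 and of Nfib, a nuclear factor I transcription factor, at -2.55. The values are RMA log2 levels, which do not reach 0 when a transcript is absent, so the fold is uncertain in size.

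**Figure D1:**
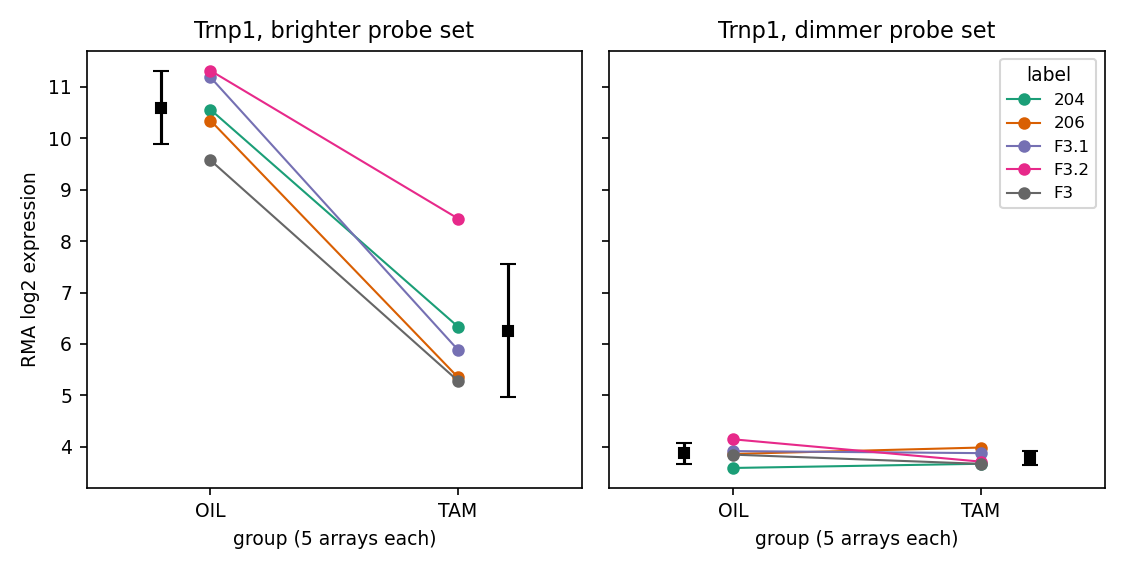
RMA log2 level of the 2 Trnp1 probe sets in each array; lines join the OIL and TAM arrays of a label, and squares with bars are group means ± SD (n = 5). The brighter probe set was between 9.57 and 11.32 in OIL and between 5.28 and 8.44 in TAM, and the dimmer one stayed between 3.59 and 4.14 in all 10 arrays.

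Within labels, the TAM level was lower in 5 of 5 pairs, but by different amounts. The difference was -5.31 for F3.1, -5.00 for 206, -4.29 for F3, -4.23 for 204 and -2.88 for F3.2. On the linear scale the TAM array held 2.52% of its OIL partner's level for F3.1, 3.13% for 206, 5.10% for F3, 5.34% for 204 and 13.6% for F3.2. The F3.2 pair thus kept the largest share and the F3.1 pair the smallest.

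A single array widened the TAM group. TAM F3.2 lay 2.11 log2 units above the next TAM array. Without it, the TAM mean was 5.71 ± 0.49 (SD, n = 4) and the difference from OIL was -4.89, so the fall was larger, not smaller, without this array. In OIL, the F3 array was the lowest, and F3.1 and F3.2 were the highest.

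The dimmer probe set, 1440696_at, showed no such difference. Its levels in OIL were 4.14 for F3.2, 3.91 for F3.1, 3.86 for 206, 3.85 for F3 and 3.59 for 204. In TAM they were 3.71, 3.87, 3.98, 3.67 and 3.67 in the same order of labels. The groups overlapped, with means of 3.87 ± 0.20 and 3.78 ± 0.14 (SD, n = 5), a mean difference of -0.09, and the TAM array was the lower in 3 of 5 pairs. Its mean over the 10 arrays was below the limit of 4.04 log2 units that left out the lowest 30% of probe sets, so 1 of the 2 Trnp1 probe sets passed that limit. The description of Trnp1 in these leukemias therefore rests on 1 probe set. Where either probe set lies in the Trnp1 transcript was not determined here.

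The deleted gene gave a check on the labels beside Trnp1. The dimmer of the Ppp3r1 probe sets, 1421786_at, averaged 5.32 ± 0.58 over the OIL and 3.26 ± 0.21 over the TAM arrays (SD, n = 5), and 5 of 5 pairs were lower in TAM (-2.06, limma adjusted p = 0.0161). Its TAM levels were 3.59 for F3.2, 3.30 for 206, 3.21 for F3, 3.18 for 204 and 3.02 for F3.1. All of these lie below the dim limit of 4.04, so their order among the TAM arrays is not read. In OIL, F3 had the highest Ppp3r1 level (6.04) and the lowest Trnp1 level. The brighter Ppp3r1 probe set, 1433591_at, differed by only -0.12 between groups (limma adjusted p = 0.553), and neither was placed against the deleted exons.

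**Figure D2:**
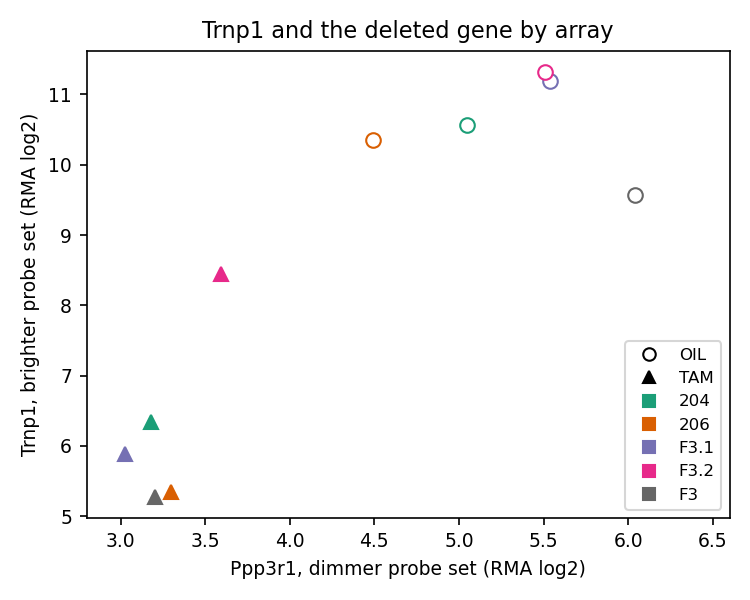
Level of the brighter Trnp1 probe set against that of the dimmer Ppp3r1 probe set in each array (RMA log2; circles OIL, triangles TAM, colours by label). The TAM arrays lie at 3.59 or lower for Ppp3r1, under the dim limit of 4.04 where their order is not read, and between 5.28 and 8.44 for Trnp1.

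The labels fall into 2 sets of arrays, the pair 204 and 206 against the F3 family of F3.1, F3.2 and F3, a split that did not choose the gene. The mean of the brighter Trnp1 probe set over both arrays of a label was 8.61 ± 1.23 in the F3 family (SD, n = 3 labels) and 8.15 ± 0.42 in 204/206 (n = 2 labels). The difference of 0.47 did not pass (limma with the label as a random block, SE 0.62, 95% confidence interval -0.91 to 1.84, adjusted p = 0.828). Without TAM F3.2 the difference was 0.08, without TAM 206 it was 0.24, without OIL F3 it was 0.73 and without TAM F3 it was 0.70. In the same fit, 2.29% of the 45037 probe sets were called between the families, so a probe set that did not pass is what the background gives. Over the 5 label means, the exact permutation p (two-sided) was 0.7, where 0.1 is the smallest value this design allows. The dimmer probe set differed by 0.08 (confidence interval -0.19 to 0.36, adjusted p = 0.85).

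The size of the Trnp1 fall was also compared between the families. The TAM minus OIL difference was -4.16 ± 1.22 in the F3 family (SD, n = 3 pairs) and -4.61 ± 0.55 in 204/206 (n = 2 pairs), an interaction of 0.45. Its direction rested on single arrays: it was -0.50 without TAM F3.2, -0.11 without OIL F3 and -0.04 without TAM 206. It was larger without TAM F3 (1.08), TAM 204 (0.94), TAM F3.1 (0.78), OIL F3.2 (0.76) and OIL F3.1 (0.70). That interaction did not pass (limma, SE 1.22, 95% confidence interval -2.30 to 3.2, adjusted p = 1.00; exact permutation p = 0.8, smallest possible 0.1). The interval allows differences of several log2 units, so equal falls are not shown. With the replicate block, the interval was -1.05 to 1.95. The dimmer probe set gave an interaction of -0.32 (-0.78 to 0.14, adjusted p = 1.00). Over all probe sets 0% were called for the interaction, 0 of 45037, with 1160 at an unadjusted p under 0.05.

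Genes whose pattern was most like that of Trnp1 were ranked by Pearson's r between log2 levels over the 10 arrays. The ranking covered 4975 other probe sets above the dim limit that spanned at least 1 log2 unit. The arrays share the TAM and OIL split and the label pairs, so r largely reflects the difference between groups, and it is given as a measure of likeness without a test. The median r over all ranked probe sets was -0.17, 11 were above 0.9 and 23 below -0.9.

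Cers4, a ceramide synthase, followed Trnp1 most closely (r = 0.96). Its level was 7.23 in OIL 204, 7.55 in OIL 206, 7.99 in OIL F3.1, 8.27 in OIL F3.2 and 7.06 in OIL F3. In TAM it was 6.92 for F3.2, 5.41 for F3.1, 5.24 for F3, 4.67 for 206 and 4.61 for 204. As for Trnp1, the F3.2 array was highest in both groups, F3 was the lowest OIL array, and the groups did not overlap. The order of the other TAM arrays differed. Cers4 was lowest in TAM 204, where Trnp1 was next highest, and Trnp1 was lowest in TAM F3. The other 2 Cers4 probe sets had r of 0.88 each.

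Next came Ccdc162 (r = 0.94), the ubiquitin ligase Trim2 (0.93), the urothelial tetraspanin Upk1b (0.93), the myelin enzyme Cnp (0.93) and the asparaginase-like Asrgl1 (0.91). They were followed by the nuclear kinase Rps6ka5 (0.91), the kinase anchor Akap12 (0.90), the protein kinase A inhibitor Pkig (0.90) and the neuron navigator Nav2 (0.89). Each of the 10 was lower in TAM in 5 of 5 pairs, by between -2.25 for Cers4 and -0.50 for Pkig. None came near the size of the Trnp1 difference. The other 3 Upk1b probe sets had r between 0.86 and 0.91. Of the other Trim2 probe sets, the 4 of 5 that were ranked had r between 0.37 and 0.91, and of those of Nav2 the 4 of 7 that were ranked had r between 0.38 and 0.72. The 1 other ranked probe set of Cnp had r = 0.48, and the 3 other Asrgl1 probe sets were not ranked. The Trim2, Upk1b and Rasgrp2 probe sets named here carry the suffix _x_at, which marks probe sets that can also read other transcripts.

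The opposite pattern was closest in Slc35d1, a nucleotide sugar transporter of the endoplasmic reticulum (r = -0.97). Its level was 7.38 in OIL 204, 7.32 in OIL 206, 7.04 in OIL F3.1, 6.96 in OIL F3.2 and 7.59 in OIL F3. In TAM it was 8.26 for 204, 8.32 for 206, 8.0 for F3.1, 8.26 for F3 and 7.56 for F3.2. TAM F3.2, where Trnp1 was least reduced, was the lowest TAM array for Slc35d1 and just under OIL F3, so the groups met at these arrays.

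Further opposite genes were the mRNA decay factor Zfp36l1 (r = -0.96), the insulin receptor substrate Irs2 (-0.95), the ETS family repressor Etv6 (-0.95) and the anion channel subunit Lrrc8c (-0.95). The TGF-beta inhibitor Ldlrad4 (-0.95), the calcium-responsive kinase Ptk2b (-0.94), the Rap activator Rasgrp2 (-0.94), the MAP kinase phosphatase Dusp4 (-0.94) and the nuclear receptor Nr4a1 (-0.94) completed the 10. Each was higher in TAM in 5 of 5 pairs, by between 0.65 for Etv6 and 2.50 for Nr4a1. The 1 other ranked probe set was less alike for Etv6 (-0.59), Ldlrad4 (-0.64) and Ptk2b (-0.67). Several of these act in calcium, MAP kinase or antigen receptor signalling, which is background to their names and not a result.

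**Figure D3:**
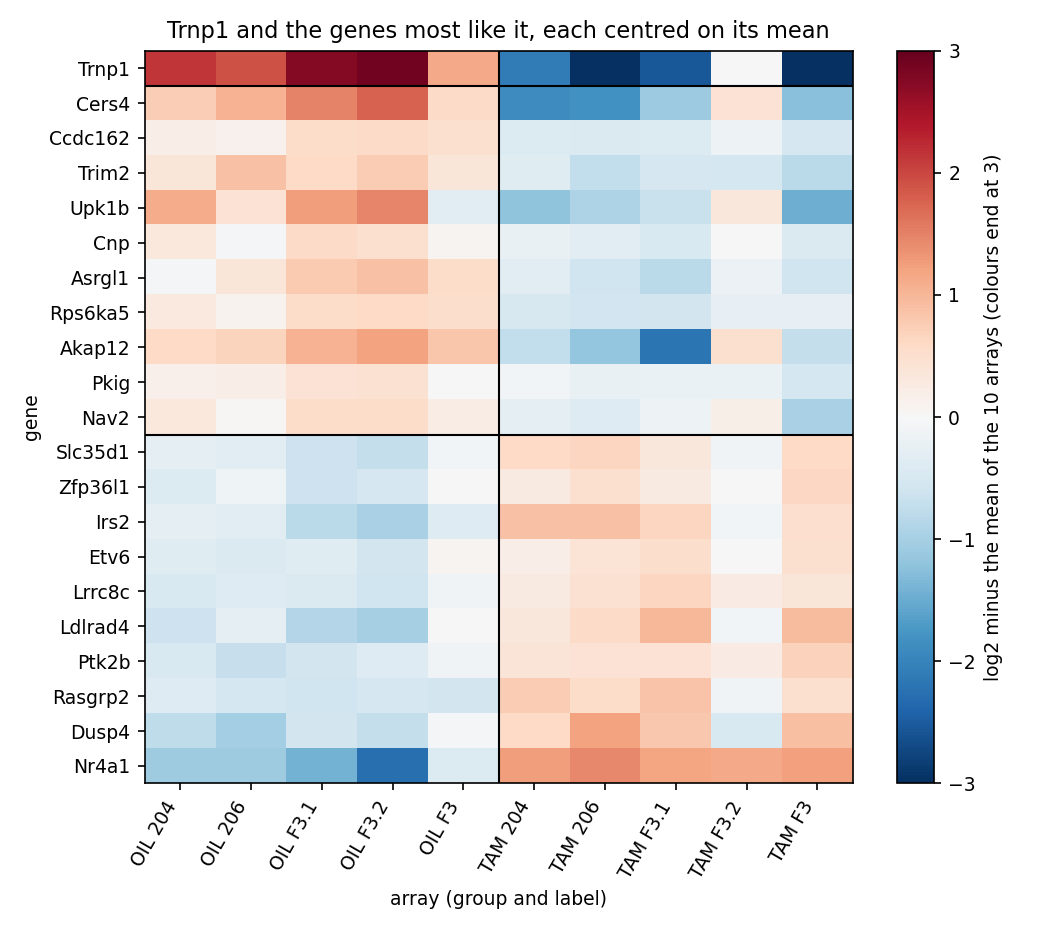
Log2 level of Trnp1 and of the 10 genes with the highest and 10 with the lowest r, each minus its mean over the 10 arrays (colours end at 3). Within TAM the F3.2 column is the palest for Trnp1, Cers4, Slc35d1 and Irs2, whereas for Nr4a1 it is as dark as the other TAM columns.

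The array nearest to the other group was compared between the 20 genes most like Trnp1 and the wider response. TAM F3.2 was the TAM array nearest to the OIL mean for 17 of these 20 genes, which includes all 10 opposite ones. The wider response was the 184 probe sets, other than Trnp1, with 1 symbol, above the dim limit and with a difference of at least 1 log2 unit. They include some of the 20 genes, such as Cers4. Among the 184, TAM F3.2 was nearest for 21.7%, and TAM F3 was nearest for 35.9%. In OIL, F3 was nearest to the TAM mean for 12 of the 20 genes and for 25.0% of the 184 probe sets. The positions of TAM F3.2 and OIL F3 helped to choose the 20 genes, so both contrasts are descriptions.

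To set the group difference aside, r was also taken over the deviations of the 10 arrays from their own group means. For the 10 genes that ran with Trnp1 it was positive for all 10, from 0.36 for Rps6ka5 to 0.86, with a median of 0.64. For the 10 opposite genes it was between -0.91 for Slc35d1 and -0.52 for Nr4a1, with a median of -0.81. The median over all ranked probe sets was -0.10. Since r over the 10 arrays includes these deviations, they are not independent of the choice of the genes.

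Without TAM F3.2 the medians of r over deviations were 0.59 and -0.74, but single genes moved in both directions. The value was 0.56 instead of 0.86 for Cers4 and 0.16 instead of 0.69 for Akap12, but 0.89 instead of 0.58 for Pkig and 0.62 instead of 0.44 for Trim2. For the opposite genes it was -0.92 instead of -0.87 for Zfp36l1, -0.80 instead of -0.52 for Nr4a1 and -0.82 instead of -0.91 for Slc35d1. For Rasgrp2 its sign turned, from -0.66 to 0.35, so the likeness of Rasgrp2 within groups rests on that array.

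**Figure D4:**
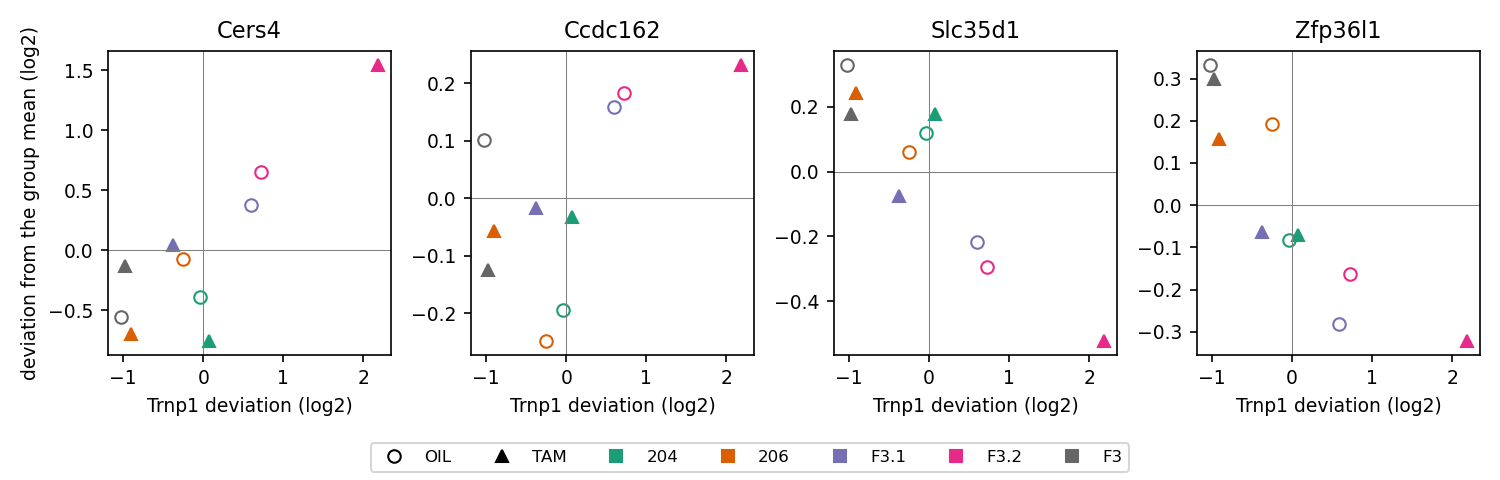
Deviation of each array from its group mean for Trnp1 (x axis) and for the 2 genes with the highest and the 2 with the lowest r (y axis), in log2 units; open circles are OIL, triangles TAM, colours mark labels. TAM F3.2 lies far to the right in each panel, and the Zfp36l1 and Slc35d1 points fall along a line also without it.

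The genes closest to Trnp1 over deviations alone were for the most part others. The highest were the phospholipase Pld1 (r = 0.93), Parp11 (0.92), Upk1b at another probe set (0.91), the gag-derived Rtl3 (0.90), the focal adhesion protein Tns3 (0.87) and the potassium-chloride cotransporter Slc12a5 (0.86). The lowest were the scaffold Iqgap2 (-0.96), the tRNA CCA-adding enzyme Trnt1 (-0.95), the SNARE Snap23 (-0.95), the glucose transporter Slc2a3 (-0.94), the ribosome biogenesis factor Rpf1 (-0.93) and the co-chaperone Dnajc21 (-0.93). Without TAM F3.2 these r lay between 0.66 and 0.90 and between -0.89 and -0.80. Over the 10 arrays, the other ranked Parp11 probe set had r = -0.47, against 0.16 for the one named. The other ranked probe sets of Tns3 (0.69), Iqgap2 (-0.73) and Slc2a3 (-0.86 and -0.82) had r of the same sign as those named. The other probe sets of Pld1, Slc12a5, Trnt1, Snap23, Rpf1 and Dnajc21 were not ranked.

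Of the 6 highest, Upk1b and Tns3 were also lower in TAM in 5 of 5 pairs, with TAM minus OIL differences of -0.94 and -1.27. Rtl3 and Slc12a5 were higher in TAM by 0.77 and 0.60, in 5 of 5 pairs. Within TAM, Slc12a5 kept the order of the Trnp1 levels. Rtl3 was highest in TAM F3.2 (6.51), as Trnp1 was, but lowest in TAM 204 (4.83), where Trnp1 was next highest. The likeness of Rtl3 within TAM thus rests on F3.2. Both genes were dim, with OIL means of 4.48 for Rtl3 and 4.38 for Slc12a5. Pld1 and Slc2a3 were similarly dim, with OIL means of 4.51 and 4.48. Of the 6 lowest, Iqgap2 had the largest difference, 0.63, and was higher in TAM in 4 of 5 pairs. Tns3 averaged 9.74 ± 0.53 over the OIL and 8.47 ± 1.05 over the TAM arrays (SD, n = 5). Its F3.2 arrays were the highest in both groups, at 10.28 and 9.74.

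The neighbours of Trnp1 on chromosome 4 did not share its difference. The 10 genes on each side that had a probe set of their own, in RefSeq order, run from Fgr to Dhdds. Each was read by its brightest probe set. Without the block 0 of 20 were called, against 0.0733% of all probe sets (limma, 33 of 45037), and with the replicate block 0 of 20, against 1.3% (584). Of them, 1 (Sytl1) reached an unadjusted p under 0.05, against 11.1% of all genes. Their TAM minus OIL differences lay between -0.31 and 0.30, with a median of -0.06 against -0.04 over the brightest probe sets of all 18193 genes.

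Tent5b, the nearest on one side, a member of a family of poly(A) polymerases, was 3.62 ± 0.13 in OIL and 3.49 ± 0.11 in TAM and was below the dim limit. Kdf1, the nearest on the other side, was 4.16 ± 0.25 and 4.20 ± 0.09. The largest difference among the neighbours on the lower side was that of Sytl1, a synaptotagmin-like protein of vesicle traffic, at -0.31 (limma adjusted p = 0.423). The largest on the higher side was that of the palmitoyltransferase Zdhhc18, at 0.30 (adjusted p = 0.778), but its other probe set differed by -0.20. Arid1a, a chromatin remodelling subunit, differed by 0.27 (adjusted p = 0.565), and its other probe set by 0.35.

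**Figure D5:**
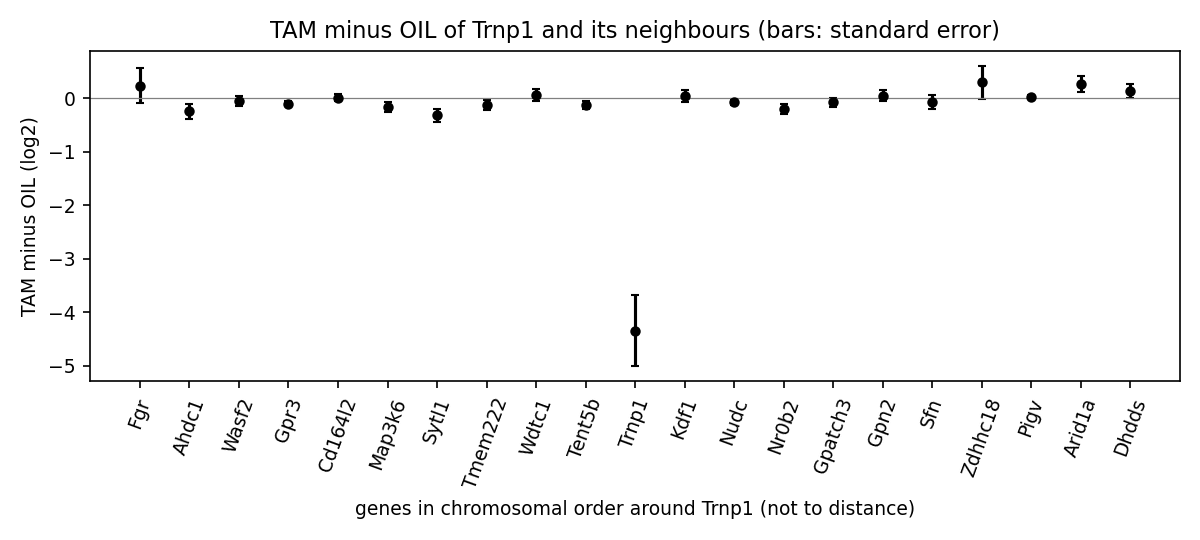
TAM minus OIL difference of Trnp1 and of the 10 genes on each side, each by its brightest probe set, in chromosomal order and not to distance. Bars are standard errors (5 arrays per group, RMA log2). Trnp1 stands at -4.34 and the neighbours lie between -0.31 and 0.30.

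Genes tied to the known biology of Trnp1 were each read by their brightest probe set. Over the brightest probe sets of all 18193 genes, limma called 0.115% without the block and 1.69% with it, so 0 called in a list of this size is what the background gives. An unadjusted p under 0.05 was reached by 11.1% of all genes, and 62.5% had a lower mean in TAM. Tmf1, whose product directs Trnp1 to degradation, had a mean of 6.55 ± 0.26 in OIL and 6.79 ± 0.37 in TAM (SD, n = 5), which is 0.23 higher (limma adjusted p = 0.729), and its other probe set differed by 0.01. Of 16 measured genes of nucleoli, speckles, other nuclear bodies and heterochromatin, limma called 0 in either fit, and 1 reached an unadjusted p under 0.05, near the 11.1% of all genes. That was Coil, the marker of Cajal bodies, at -0.16 (adjusted p = 0.408). The median difference of the list was 0.02, and nucleolin (Ncl) and nucleophosmin (Npm1) differed by -0.06 each.

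Of 17 measured genes of neural progenitors and neurons, the setting in which Trnp1 is best known, 0 were called with or without the block and 13 were above the dim limit. In all, 14 of them had a lower mean in TAM, against 62.5% of all genes, with a list median of -0.05 against -0.04, and 1 had an unadjusted p under 0.05, against 11.1%. That was Vim, the intermediate filament vimentin, which is also made outside the nervous system. Its means were 10.59 ± 0.54 (OIL) and 9.15 ± 0.88 (TAM), and 5 of 5 pairs were lower in TAM (-1.44, limma adjusted p = 0.271, and 0.106 with the block). Its other probe sets differed by -1.39 to -1.30. The neural stem cell factors Pax6 and Sox1 differed by -0.06 and -0.07.

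Of 20 measured genes of S phase and mitosis, limma called 0 in either fit, 3 reached an unadjusted p under 0.05 against 11.1% of all genes, and the list had a median difference of 0.09 against -0.04. In all, 15 of the 20 had a higher mean in TAM, against 37.5% of all genes. The 3 with an unadjusted p under 0.05 were cyclin E2 (Ccne2, 0.31, adjusted p = 0.364), the topoisomerase Top2a (0.25, 0.493) and the checkpoint kinase Bub1 (0.16, 0.414). The other Bub1 probe set differed by -0.15, in the opposite direction. Of the brightest probe sets of 12 calcineurin and NFAT genes, limma without the block called 0, against 0.115% of all genes, though it called the dimmer Ppp3r1 probe set. Of the 12, 3 reached an unadjusted p under 0.05, against 11.1%. The 3 were the calcineurin regulators Rcan3 (-0.47, limma adjusted p = 0.466) and Rcan2 (-0.30, 0.494) and the transcription factor Nfatc2 (0.71, 0.0607). The Rcan2 probe set was below the dim limit, and the other Rcan2 probe set differed by -0.13. With the block limma called 1 of the 12, Nfatc2, which rose (adjusted p = 0.025), against 1.69% of all genes. Its other probe sets differed by -0.13 to 0.11. These lists and Trnp1 were chosen with results of the same arrays known.

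Markers of T cells and of other marrow cells were examined beside the Trnp1 difference, as the mean log2 level of each list per array. Of the T lineage markers, 8 of 10 were measured, and their mean was 10.59 to 11.09 in OIL and 10.70 to 11.15 in TAM, so the T cell label held in every array. Of these 8, 0 were called by limma, against 0.115% of all genes, and 1 had an unadjusted p under 0.05, against 11.1%. A list of this size would have 0 called by the background alone.

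B cell markers lay between 4.40 and 4.77 in OIL and between 4.25 and 4.39 in TAM. All 5 measured markers had lower means in TAM, against 62.5% of all genes. Of them 0 were called by limma, against 0.115%, and 3 had an unadjusted p under 0.05, against 11.1%. The list ranges of the groups only just failed to overlap, with 4.396 in OIL 206 as the lowest OIL level and 4.394 in TAM 204 as the highest TAM level. For Trnp1 the gap was 1.14 log2 units. These list levels are dim, and the Cd79b probe set was below the dim limit, so nothing is read from the separation. The part of B cells in the Trnp1 difference was not tested. Granulocyte and monocyte markers lay between 4.86 and 6.31 in OIL and between 5.37 and 6.84 in TAM, highest in both groups for label F3. Of these 11, 0 were called and 1 had an unadjusted p under 0.05, against the same shares of all genes.

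Erythroid markers lay between 4.71 and 4.94 in OIL and between 4.68 and 4.89 in TAM, and megakaryocyte markers between 4.82 and 5.04 and between 4.82 and 4.92. Endothelial and stromal markers lay between 4.47 and 5.03 in OIL and between 4.51 and 5.23 in TAM. The NK list rested on Ncr1 and on Gzma, the granzyme A gene, which T cells also make and which was bright in both groups (12.75 in OIL and 12.95 in TAM). Of these 5, 4, 8 and 2 markers 0 were called by limma, against 0.115% of all genes. Among them 1, the megakaryocyte gene Gp9 (-0.17), had an unadjusted p under 0.05, against 11.1% of all genes. Nothing is read from these counts. In such bulk samples fewer cells of a type and less RNA per cell cannot be told apart.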

How the data were processed

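The values are log2 expression levels deposited by the authors; the submitters' processing notes name RMA, which removes background, brings the arrays to a common distribution and combines the probes of a set. The sources used here name no RMA version. Array medians were 5.07 to 5.13; arrays have no read depth, so 5 per group limit the precision. Control probe sets (64) were left out, which left 45037; 34945 had 1 gene symbol in the platform annotation, 932 several and 9160 none, and 34741 were matched to RefSeq by Entrez ID. Each probe set was fitted on its own with limma 3.58.1 (R 4.3.3), Benjamini-Hochberg over all, called at an adjusted p under 0.05: TAM against OIL (no block), label family (group as a term, label as a random block, correlation 0.28 estimated on 5005 probe sets) and their interaction. Arrays of a label deviated together from their group means (r = 0.73, 0.73, 0.61, 0.27 and 0.79 for 204, 206, F3.1, F3.2 and F3). They were therefore described as pairs, for F3.1 and F3.2 by the first part of the label. However, 3 arrays (TAM F3.1 and both of F3.2) were closest to an array of a different label. The main TAM against OIL and interaction fits did not use the pairing. Their p-values ignore it unless the block is mentioned. With the replicate block, 584 probe sets were called TAM against OIL, and 33 without it. The fits were tested on simulated data with independent noise for each array, which cannot show how they handle the correlation between arrays of a label.

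Likeness was Pearson's r with the brighter Trnp1 probe set, over probe sets with 1 symbol above the lowest 30% of means and with a range of at least 1 log2; the 10 genes at either end, and 6 at either end over deviations, are named. List genes are represented by their brightest probe set; those named were called, had an unadjusted p under 0.05 or were closest to Trnp1, and other named members were chosen after their values were seen. The members, lists and tests were chosen with earlier results of these data known. Alternatives were other scalings, filters, probe set choices, moderation, blocks, OIL F3.1 and F3.2 averaged, and leaving out each array.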

Additional observations from a re-analysis of the deposited data

Results flagged for a closer look

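Of 78 groups of 5 values examined (arrays of a group, or label pairs), 2 held a value far from the others by Dixon's criterion, fewer than the 1 in 20 that chance flags. Both were TAM F3.2 and both were genes chosen for their likeness to Trnp1 over deviations. Rtl3 was 6.51 log2 units in TAM F3.2, above the other TAM arrays, and Snap23 was 5.47 there, below the other TAM arrays. The Trnp1 level of 8.44 in TAM F3.2 did not meet the criterion.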

How the results depend on the processing

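The TAM minus OIL difference of the brighter Trnp1 probe set lay between -4.89 and -4.10 over the 10 fits without 1 array. Neither its family difference (0.08 to 0.73) nor its interaction (-0.50 to 1.08, so that its direction turned) was called in any of them. The replicate block left these 3 differences as they were and changed no Trnp1 call; median centring, a further quantile normalization and averaging OIL F3.1 with F3.2 changed none either. Counts of called probe sets depended more on the setting. For TAM against OIL, 33 became 584 with the replicate block, 13 with OIL F3.1 and F3.2 averaged and 13 to 44 without 1 array. It was 18 without OIL 204, 13 without either OIL F3.1 or F3.2, 14 without TAM 204, 17 without TAM F3.1 and 35 without OIL 206. For the families, 1032 became 2024 with no replicate block, 296 on label means, 499 with the averaged arrays and 478 to 1880 without 1 array, with 478 without OIL 204, 656 without OIL 206, 525 without OIL F3.2, 534 without OIL F3.1, 1880 without OIL F3, 533 without TAM 204 and 611 without TAM 206. For the interaction, 0 became 4 without TAM 206 and stayed 0 otherwise. Of the 20 genes most like Trnp1, 10 were shared with a ranking by Spearman's rho, 9 with no range required, 3 with deviations from group means, and 12 to 18 without 1 array, fewest without OIL 204 (12) and TAM 206 (13), and 17 without OIL F3. Why the settings differ was not tested.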
